A study of Mus musculus with 4 samples.

Results

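The NRF2 antioxidant and glutathione genes were described in MC38, a cell line from a colon adenocarcinoma of the mouse, in clones whose Mgat5 gene was knocked out by CRISPR-Cas9 and in control cells. The group has 10 genes: the regulator pair Nfe2l2 and Keap1, the detoxifying enzymes Nqo1 and Hmox1, the glutathione genes Slc7a11, Gclc, Gclm and Gsr, and the thioredoxin genes Txnrd1 and Srxn1. They were chosen by symbol as textbook members of the pathway, with earlier results of these data known. All 10 were found among the 19505 named genes of the array, each by 1 probe set. There were 2 knockout arrays, 1 for each clone of MC38 KO T5 (called clone 1 and clone 2 here). The 2 control arrays came from cells that received an empty vector (MC38 MOCK) and from untransfected cells (MC38 WT). A knockout clone is 1 line grown from edited cells, neither control is labelled as a clone, and differences that come with cloning and those that come with Mgat5 loss cannot be told apart. Mgat5 encodes a glycosyltransferase of the Golgi that makes a branch of complex N-glycans, and the comparison asks which transcripts differ in cells that lack it.

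NRF2, the product of Nfe2l2, is a transcription factor that is held in the cytoplasm by KEAP1 and handed to a CUL3 ubiquitin ligase for destruction. Oxidants and electrophiles modify cysteines of KEAP1, NRF2 then escapes destruction, enters the nucleus, pairs with a small MAF protein and binds antioxidant response elements near its target genes. In tumour cells the pathway is known for supplying glutathione and reduced thioredoxin and for removing quinones and heme, and since NRF2 is controlled largely through its stability, its mRNA level says little about its activity.

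The 4 arrays did not share 1 distribution of signal. All values are log2 signals as the authors normalized them, and the upper quartile over 22206 probe sets was 9.39 in clone 1 and 9.60 in clone 2, against 9.26 in MOCK and 8.87 in WT. Over all probe sets the clones differed from the controls by a median of 0.18, and of -0.02 once quantile normalized, a step which gives every array the same distribution. Among the 6835 probe sets at least as bright as the dimmest of the 10 genes, the median difference was 0.40 as deposited and -0.04 after quantile normalization, so the differences of the 10 genes are given on both scales. The median of the negative control features lay between 5.12 and 5.22 on the 4 arrays, and all 10 genes were above it on every array. Mgat5 stood at 7.46 in clone 1 and 7.57 in clone 2, against 8.19 in MOCK and 8.27 in WT, which did not pass the limma test as deposited (difference -0.71, SE 0.37, adjusted p = 0.631) or after quantile normalization (difference -1.11, SE 0.31, adjusted p = 0.419). Where its probes lie relative to the edited site was not stated, and its level is therefore only a partial check of the labels. Of 12 epithelial markers 0 were above the median of the negative controls on all 4 arrays, with Krt8 at 5.69 in clone 1, 5.19 in clone 2, 5.53 in MOCK and 5.86 in WT, so the epithelial origin in the label is not seen in these markers. Cdx1, a transcription factor of the intestinal epithelium, stood between 4.73 and 5.51. Of 9 measured mesenchymal markers 5 were above it throughout, and Vim, which encodes vimentin and was picked after its values were seen, stood between 16.53 and 17.43. Fn1, which encodes fibronectin, had 15.34 in clone 1 and 16.10 in clone 2 against 14.81 in MOCK and 14.39 in WT, a difference of 1.12, or 0.62 after quantile normalization. Of the collagen genes, Col3a1 differed by -0.83, or -1.29 after quantile normalization, Col1a2 by 0.85 or 0.71, and Col1a1 by 0.58 or 0.47. In clone 2 Col3a1 differed from the mean of the controls by -1.04 log2 units, or -1.59 after quantile normalization. Acta2, a smooth muscle actin, was higher in clone 2 after quantile normalization. Col1a2 differed by 1.81 in clone 1, or 1.68 after quantile normalization. In clone 2 and MOCK the signal of Col1a2 lay under the median of the negative controls. Of the blood cell markers 0 of 6 were above it on all arrays, with Lyz2 between 4.87 and 5.92, and of the endothelial markers 0 of 6. In bulk RNA a change in the number of cells that express a gene and a change in RNA per cell cannot be told apart.

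Letter matches to the antioxidant response element are shown here for the genes whose promoters were at hand. RefSeq promoter windows of assembly GRCm38.p6, 300 bases each from 250 before to 50 after a transcript start, were matched by symbol for 7 of the 10 genes: Nfe2l2, Keap1, Nqo1, Gclm, Txnrd1, Srxn1 and Slc7a11. The core antioxidant response element, TGACNNNGC read on both strands, was found in the windows of 4 of these 7 genes and in those of 14% of all 27025 genes with a window. The 4 matches are printed in capitals, each 5′ to 3′ on the strand of the gene. The match of Nfe2l2 begins at base -240 counted from its start, that of Gclm at -134, that of Txnrd1 at -92 from the middle of its 3 annotated starts, and that of Srxn1 at base 29 of the transcript. Those of Gclm, Txnrd1 and Srxn1 read on the opposite strand, so the printed letters are the reverse complement of the element.
Nfe2l2 (chr2:75704875-75704913, minus strand): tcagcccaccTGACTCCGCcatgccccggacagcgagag
Gclm (chr3:122245403-122245451, plus strand): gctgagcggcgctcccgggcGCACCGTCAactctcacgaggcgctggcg
Txnrd1 (chr10:82859094-82859142, plus strand): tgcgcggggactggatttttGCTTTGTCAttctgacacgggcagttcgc
Srxn1 (chr2:152105542-152105570, plus strand): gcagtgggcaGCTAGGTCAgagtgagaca

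Slc7a11 held a different element. Its window carried the core of the amino acid response element, TGATGNAA, which ATF4 and its partners are known to bind, once on each strand, at bases -66 and -47 from the start. That core was found in 1 of the 7 genes and in 4.51% of all genes, and both copies are in capitals here.
Slc7a11 (chr3:50443633-50443699, minus strand): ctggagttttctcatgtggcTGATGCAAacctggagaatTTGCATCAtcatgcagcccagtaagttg
The window of Nqo1, the gene with the widest difference below, held neither of these letter patterns nor the AP-1 element TGANTCA, which 8.97% of all genes held and which occurred in the window of Srxn1 at a pair of places that overlap no match above. The 120 bases before the start of Nqo1 are given with a TATA box (TATAAA, a motif added after the data were seen, searched on the strand of the gene and present in 9.77% of all genes) in capitals.
Nqo1 (chr8:107403206-107403325, minus strand): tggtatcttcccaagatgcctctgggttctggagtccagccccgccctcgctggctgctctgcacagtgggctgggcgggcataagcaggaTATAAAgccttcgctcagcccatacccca
A letter match is a description of these windows and not evidence of binding, and windows further from a start were not searched.

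The group of 10 genes did not move as a block. Nqo1 and Hmox1 had the widest differences between knockout and control. Slc7a11, Gclc, Gclm, Keap1 and Srxn1 lay higher in the clones mainly relative to WT. As deposited the groups overlapped for Slc7a11, Nfe2l2, Keap1, Txnrd1, Srxn1 and Gsr. In the fit over all probe sets limma called 0 of the 10 at an adjusted p under 0.05, where 0.0405% of all probe sets were called (0.036% as higher), and 0 after quantile normalization, where 0.0045% were called, as higher. With no adjustment, 2 of the 10 had a p under 0.05, Nqo1 and Hmox1, against 8.75% of all probe sets, and after quantile normalization 1, Nqo1, against 8.92%. The median difference over the 10 genes was 0.61 log2 units, or 0.18 after quantile normalization. The knockout mean was above the control mean for 9 of the 10 genes, where 65.1% of all probe sets and 83.0% of the equally bright ones were higher. After quantile normalization it was above for 6 of the 10, against 48.3% of all. Both clones lay above both controls for 4 genes (Nqo1, Hmox1, Gclc and Gclm), against 27.8% of all probe sets. After quantile normalization they did so for 2 (Nqo1 and Gclm), against 19.2%. These last shares were not counted among the equally bright probe sets.

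**Figure D1:**
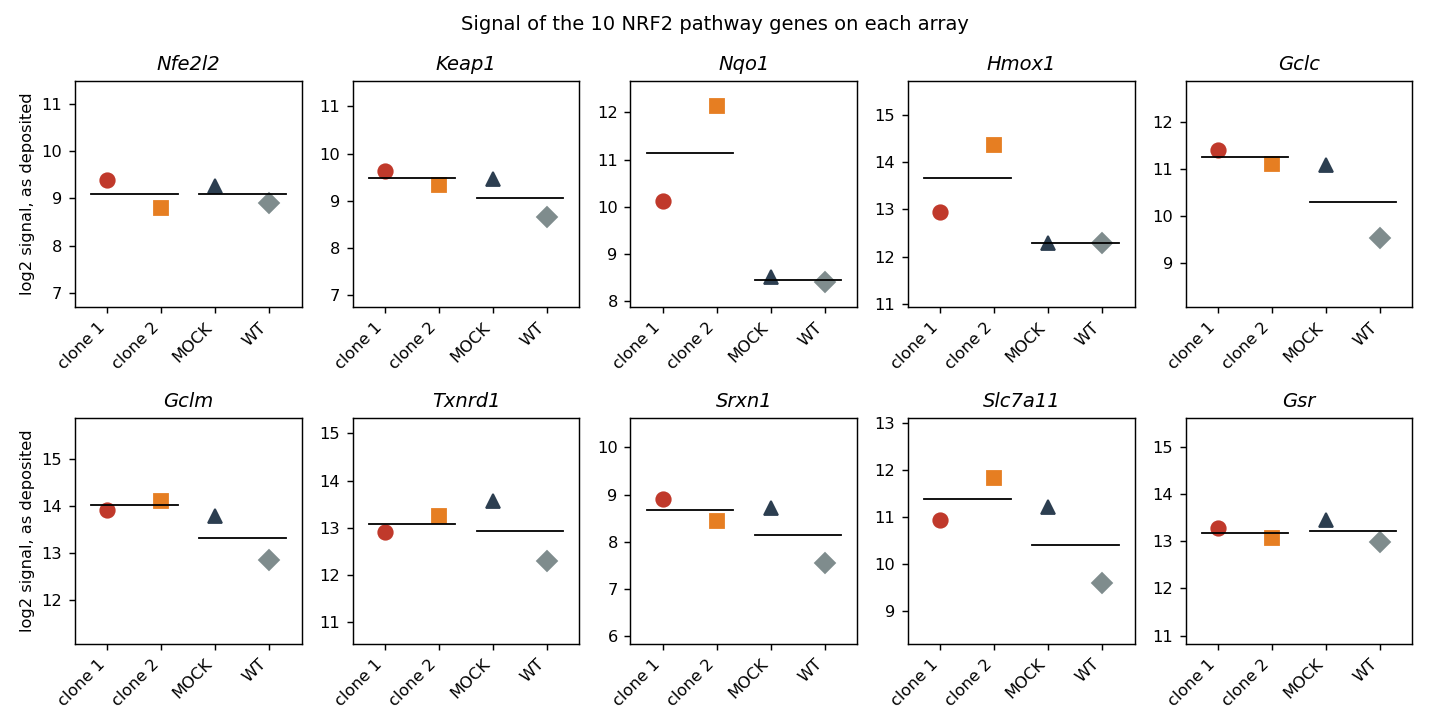
Log2 signal as deposited (vertical axis, each panel spanning the same number of log2 units) of the 10 genes on the 4 arrays, with clone 1 and clone 2 to the left of MOCK and WT and a line at each group's mean (n = 2). Nqo1 stands at 10.12 and 12.14 in the clones, both far above 8.50 and 8.40 in the controls, whereas for most other genes WT is the lowest array and MOCK lies near the clones.

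Nfe2l2 itself differed by nothing that the arrays could separate. Its log2 signal was 9.39 in clone 1 and 8.79 in clone 2, against 9.26 in MOCK and 8.91 in WT. The clones lay on either side of the controls, and the mean of the clones minus that of the controls was 0.00 (SE 0.40, limma adjusted p = 0.998). After quantile normalization the values were 9.28 and 8.49 in the clones and 9.28 and 9.33 in MOCK and WT, with a difference of -0.42 (SE 0.35, adjusted p = 0.755). On that scale clone 2 was the lowest array, with a difference of -0.82 from the mean of the controls that did not pass in a fit without clone 1 (limma adjusted p = 0.266).

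Keap1, the adaptor that delivers NRF2 for destruction, had 9.63 in clone 1 and 9.33 in clone 2, against 9.45 in MOCK and 8.65 in WT. Both clones were above WT, and MOCK lay between them. The difference was 0.43 log2 units (SE 0.41, limma adjusted p = 0.806), with 0.03 against MOCK alone and 0.82 against WT alone, and -0.01 after quantile normalization (SE 0.33, adjusted p = 0.994).

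Nqo1 encodes a flavoenzyme that reduces quinones by transferring both electrons at once and is the customary readout of NRF2 activity. Its log2 signal was 10.12 in clone 1 and 12.14 in clone 2, against 8.50 in MOCK and 8.40 in WT. Both clones were above both controls, clone 2 stood 2.01 log2 units above clone 1, and the controls were within 0.10 of each other. The knockout mean was 11.13 ± 1.42 and the control mean 8.45 ± 0.07 (SD, n = 2 each), a difference of 2.68 log2 units or 6.41-fold (SE 0.57). This did not pass the limma test (adjusted p = 0.164, and from 4.08e-05 to 1.00 over the alternatives). After quantile normalization the difference was 2.24 log2 units (SE 0.55, adjusted p = 0.367), again with both clones above both controls. It passed when probe sets with dim mean signal were left out (adjusted p = 0.000266 with a filter at the median of mean signal and 0.000229 with one at the median of the negative controls) and with a trended, robust variance (4.08e-05), where 1.77%, 1.81% and 1.53% of the probe sets tested were called.

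Among all 22206 probe sets, Nqo1 ranked 70th by the gap between the lower clone and the higher control, and 95th after quantile normalization. That gap was 1.62 log2 units, or 1.21 after quantile normalization. Nqo1 was 1 of the 10 genes with a gap of at least 1 log2 unit, where 1.37% of all probe sets had such a gap, and 0.779% after quantile normalization. Its signal in MOCK and WT lay above the upper quartile of the negative control features, 6.56 and 6.29, but below their 95th percentile, 8.98 and 8.62, so the level in the controls may hold background.

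Taken 1 clone at a time, against the mean of both controls, Nqo1 was 12.9-fold higher in clone 2 and 3.19-fold higher in clone 1. In a limma fit without clone 1, Nqo1 rose in clone 2 by 3.69 log2 units (SE 0.49, adjusted p = 8.83e-05), and by 3.16 after quantile normalization (adjusted p = 0.000228). In the fit without clone 2 the difference of clone 1 was 1.67 log2 units (SE 0.49, adjusted p = 0.184) and 1.33 after quantile normalization (adjusted p = 0.115). Each such fit has 1 clone array, which is assumed to vary as MOCK and WT do.

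Hmox1 encodes the inducible heme oxygenase, which opens heme to biliverdin, iron and carbon monoxide and answers to NRF2, to BACH1 and to other stress factors. It had 12.94 in clone 1 and 14.37 in clone 2, against 12.29 in MOCK and 12.28 in WT. The controls coincided, both clones were above them, and clone 2 stood 1.43 log2 units above clone 1. The knockout mean was 13.66 ± 1.01 and the control mean 12.28 ± 0.00 (SD, n = 2 each), a difference of 1.37 log2 units or 2.59-fold (SE 0.48), which did not pass the limma test (adjusted p = 0.447). After quantile normalization the controls moved apart, to 12.18 in MOCK and 12.91 in WT, and clone 1 at 12.76 lay between them while clone 2 at 14.12 stayed above both. The difference was then 0.90 (SE 0.48, adjusted p = 0.628).

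In clone 2 alone, Hmox1 rose by 2.09 log2 units, 4.24-fold, in the fit without clone 1 (SE 0.49, limma adjusted p = 0.0200), and by 1.58 after quantile normalization (adjusted p = 0.0443). In clone 1 the difference was 0.66 (adjusted p = 0.865), and 0.21 after quantile normalization (adjusted p = 0.886). Nqo1 and Hmox1 were the 2 of 10 genes called in clone 2, both higher, where 2.38% of all probe sets were called (2.16% as higher). The same 2 genes were called in clone 2 after quantile normalization, where 3.6% of all probe sets were called (2.32% as higher). In clone 1, limma called 0 of the 10 genes, against 0.671% of all probe sets (0.594% as higher), and 0 after quantile normalization, against 1.15% (0.851% as higher). Whether the clones differ from each other has no test, since each is 1 array.

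**Figure D2:**
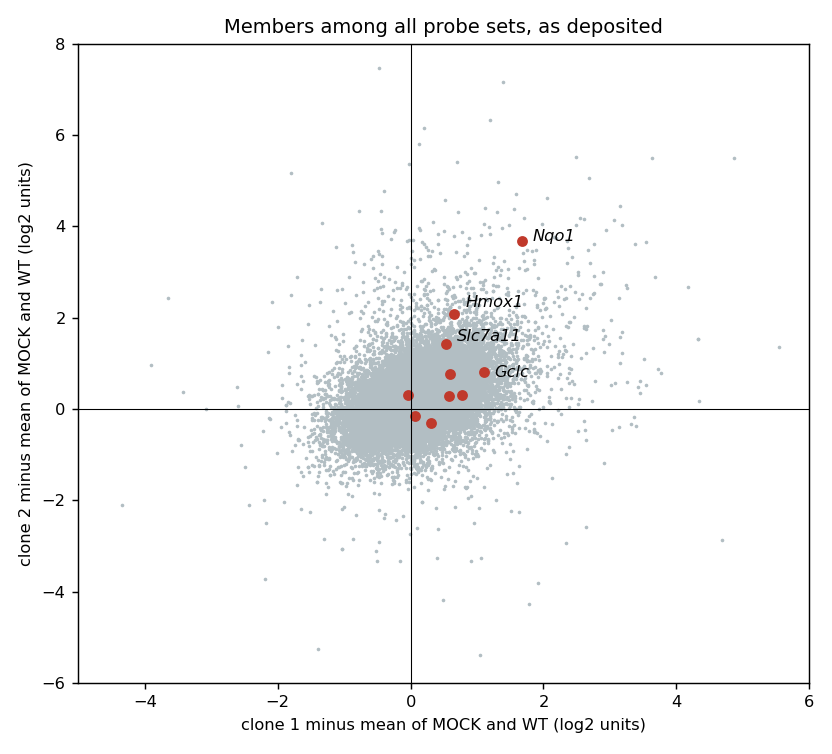
Difference of clone 1 (horizontal axis) and of clone 2 (vertical axis) from the mean of MOCK and WT, in log2 units as deposited, for all probe sets (grey, with 3 outside the axes) and the 10 genes (red, the 4 farthest out named). Both axes share the controls. Nqo1 lies at 1.67 and 3.69, at the edge of the cloud, and Hmox1 at 0.66 and 2.09, while the other 8 lie within it.

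Slc7a11 encodes xCT, the light chain of the antiporter that imports cystine in exchange for glutamate and so feeds glutathione synthesis. Its log2 signal was 10.93 in clone 1 and 11.82 in clone 2, against 11.22 in MOCK and 9.59 in WT. Clone 2 was above both controls and clone 1 lay between them, and the controls themselves were 1.63 log2 units apart. The difference was 0.97 log2 units (SE 0.55, limma adjusted p = 0.662) and 0.57 after quantile normalization (SE 0.44, adjusted p = 0.735). Against MOCK alone it was 0.16, and against WT alone 1.78, so the choice of control sets its size. Clone 2 was 2.67-fold above the mean of the controls, which did not pass in the fit without clone 1 (adjusted p = 0.285).

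Gclc and Gclm encode the catalytic and the modifier subunit of glutamate-cysteine ligase, the rate-limiting enzyme of glutathione synthesis. Gclc had 11.41 in clone 1 and 11.12 in clone 2, against 11.08 in MOCK and 9.53 in WT. Clone 1 was the highest, clone 2 exceeded MOCK by 0.04, and WT lay 1.55 below MOCK. The group difference of 0.96 log2 units (SE 0.50, limma adjusted p = 0.640) was 0.18 against MOCK alone and 1.73 against WT alone. After quantile normalization clone 2, at 10.81, was below MOCK, at 11.01, and the difference was 0.54 (SE 0.41, adjusted p = 0.731).

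Gclm had 13.92 in clone 1 and 14.09 in clone 2, against 13.79 in MOCK and 12.84 in WT. Both clones were above both controls, by 0.13 at the narrowest. The difference was 0.69 log2 units (SE 0.42, limma adjusted p = 0.692), with 0.21 against MOCK alone and 1.16 against WT alone, and after quantile normalization, where MOCK and WT stood within 0.04 of each other, 0.21 (SE 0.30, adjusted p = 0.866). Gclm kept both clones above both controls on both scales, by a gap of 0.14 log2 units after quantile normalization.

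Gsr encodes glutathione reductase, which restores oxidized glutathione with NADPH. It had 13.29 in clone 1 and 13.08 in clone 2, against 13.46 in MOCK and 12.99 in WT, so both clones lay between the controls. The difference was -0.04 log2 units (SE 0.39, limma adjusted p = 0.987). After quantile normalization Gsr was lower in both clones, at 13.10 and 12.79, than in MOCK, at 13.28, and WT, at 13.68, with a difference of -0.54 (SE 0.32, adjusted p = 0.655). It was then the 1 gene of the 10 with both clones below both controls, where 21.3% of all probe sets had that order.

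Txnrd1 encodes the cytosolic thioredoxin reductase, a selenoenzyme. Its log2 signal was 12.90 in clone 1 and 13.25 in clone 2, against 13.58 in MOCK and 12.29 in WT. MOCK was the highest array and WT the lowest, with both clones between. The difference was 0.14 log2 units (SE 0.47, limma adjusted p = 0.957) and -0.32 after quantile normalization (SE 0.32, adjusted p = 0.801).

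Srxn1 encodes sulfiredoxin, which repairs overoxidized peroxiredoxins. It had 8.91 in clone 1 and 8.44 in clone 2, against 8.72 in MOCK and 7.55 in WT. Both clones were above WT, and MOCK lay between them. The difference was 0.54 log2 units (SE 0.46, limma adjusted p = 0.777) and 0.14 after quantile normalization (SE 0.40, adjusted p = 0.939). The signals of Srxn1 were below the 95th percentile of the negative controls on all arrays but clone 1.

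The controls differed from each other in these genes. As deposited MOCK was above WT for all 10, where 90.0% of equally bright probe sets had that order, and by at least 1 log2 unit for 4 (Slc7a11, Gclc, Txnrd1 and Srxn1), against 8.79% of all probe sets. The share among equally bright probe sets was not counted. MOCK exceeded WT there by a median of 0.63 log2 units, against 0.27 over all. After quantile normalization MOCK was above WT for 6 of the 10, and by at least 1 log2 unit for 2, Slc7a11 by 1.12 and Gclc by 1.03, against 1.85% of all probe sets. For Slc7a11, Gclc, Keap1, Txnrd1 and Srxn1 the MOCK minus WT difference was larger in size than the knockout minus control difference on both scales. Nqo1 and Hmox1 differed by 0.10 and 0.00 between MOCK and WT as deposited, and by -0.24 and -0.72 after quantile normalization. The cause of the control difference was not tested, and no replicate array of either control was used here.

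**Figure D3:**
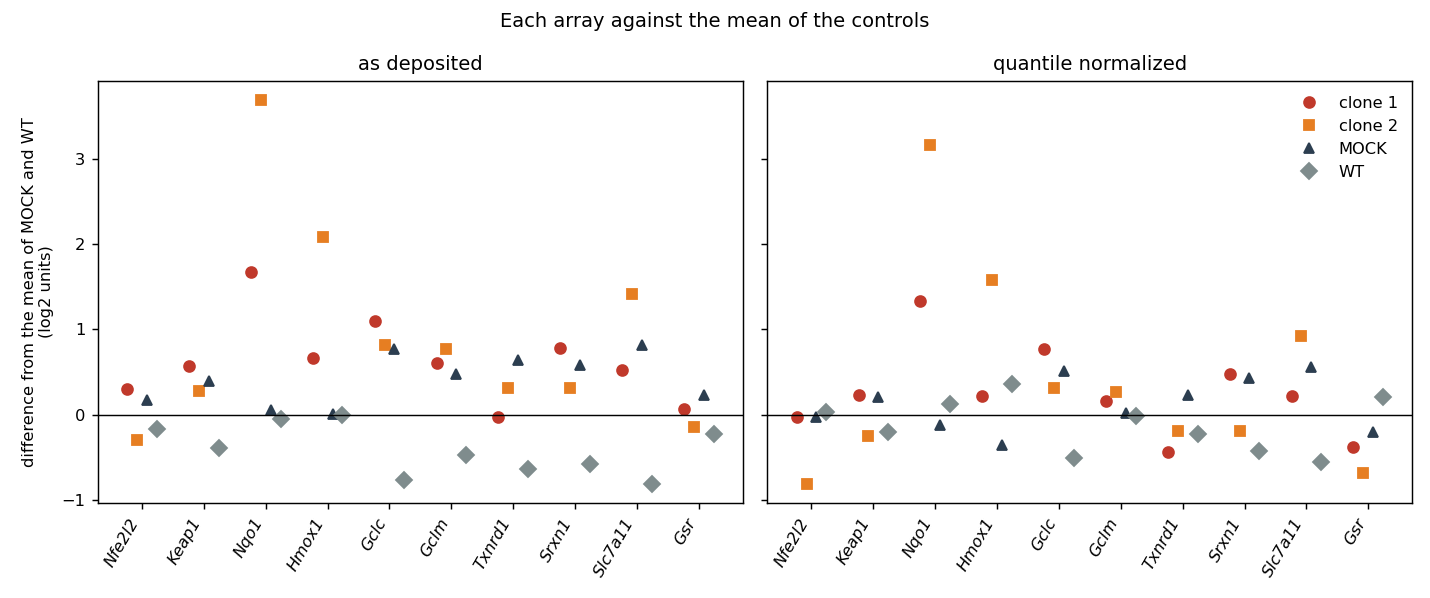
Difference of each array from the mean of MOCK and WT (vertical axis, log2 units) for the 10 genes, as deposited on the left and after quantile normalization on the right, with a symbol for each array. Clone 2 stands out for Nqo1 (3.69 and 3.16) and Hmox1 (2.09 and 1.58) on both scales, while the spread of MOCK and WT is widest for Slc7a11 and Gclc.

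The clones shared neither size nor order across the group. Clone 2 was above clone 1 for 5 of the 10 genes as deposited (Nqo1, Hmox1, Slc7a11, Txnrd1 and Gclm), where 58.9% of all probe sets had that order, and by at least 1 log2 unit for 2 (Nqo1 and Hmox1), against 8.6%. After quantile normalization clone 2 was above clone 1 for 5, against 49.4%, and by at least 1 log2 unit for 2, against 5.54%. Relative to the mean of the controls, clone 2 was at least 1 log2 unit higher for 3 genes (Nqo1, Hmox1 and Slc7a11), against 11.8% of all probe sets, and clone 1 for 2 (Nqo1 and Gclc), against 6.31%. After quantile normalization these counts were 2, against 5.41%, and 1, against 3.94%. The shares among equally bright probe sets were not counted. The median over the 10 genes was 0.54 log2 units in clone 2 and 0.59 in clone 1, or 0.03 and 0.22 after quantile normalization.

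Genes around the pathway were read from lists that do not repeat the 10 members. None of these lists held a gene called in the fit of all 4 arrays (limma, 0 genes in each). Counts at an unadjusted p under 0.05 are given with each. Over all probe sets that share was 8.75% as deposited and 8.92% after quantile normalization. As deposited 65.1% of all probe sets, and 83.0% of those at least as bright as the dimmest member, were higher, with medians of 0.18 and 0.40 log2 units. After quantile normalization 48.3% and 46.8% were higher, with medians of -0.02 and -0.04. The counts and medians of each list are to be read against these. Partners and regulators of NRF2 numbered 12, of which 11 were higher as deposited and 8 after quantile normalization, with medians of 0.65 and 0.20 log2 units and 2 genes at an unadjusted p under 0.05, or 0 after quantile normalization. The 2 were Nfe2l1, the NRF2 relative that controls proteasome genes, with 15.02 in clone 1 and 15.86 in clone 2 against 14.77 in MOCK and 13.67 in WT, and the small MAF gene Maff, whose signals ran from 4.62 to 6.18, near the negative controls. Sqstm1, which encodes p62, an autophagy receptor that competes for KEAP1, had 14.29 in clone 1 and 15.64 in clone 2 against 14.77 in MOCK and 13.46 in WT, so clone 2 was the highest array and clone 1 lay between the controls. Btrc, a subunit of another ligase that can target NRF2, differed by 0.86 log2 units (SE 0.40, limma adjusted p = 0.585), or 0.43 after quantile normalization. Nfe2l1 differed by 1.22 or 0.74, Sqstm1 by 0.85 or 0.40 and Maff by 0.94 or 0.81, in the same order of scales.

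Of 25 measured other textbook targets of NRF2, 18 were higher and 7 lower as deposited, with a median of 0.31 log2 units, and 11 were higher and 14 lower after quantile normalization, with a median of -0.13. At an unadjusted p under 0.05 limma found 2, Osgin1 and Ephx1, in opposite directions, and 3 after quantile normalization, the third being Ptgr1, whose signals of 2.77 to 3.73 lay under the negative control median and which is named for this count after its values were seen. Osgin1, a growth inhibitor induced by oxidative stress, had 5.53 in clone 1 and 6.39 in clone 2 against 5.26 in MOCK and 4.58 in WT (difference 1.04, SE 0.44, limma adjusted p = 0.542), and the difference was 0.91 after quantile normalization. The signals of Osgin1 lay below the upper quartile of the negative controls on every array, and in WT below their median. Ephx1, the microsomal epoxide hydrolase, had 4.94 in clone 1 and 3.80 in clone 2, against 5.62 in MOCK and 6.28 in WT. Both clone values lay under the median that negative control features had on those arrays. The difference was -1.73 after quantile normalization and -1.58 as deposited (SE 0.47, adjusted p = 0.353), and it was the 1 gene of this list called in clone 2 in the fit without clone 1, as lower (adjusted p = 0.0201), where 2.38% of all probe sets were called. Gstm1, a glutathione transferase, was highest in clone 1 at 14.46, with 13.28 in clone 2, 13.70 in MOCK and 12.42 in WT. Abcc4, an efflux transporter, stood at 7.59 in clone 1 and 9.62 in clone 2, against 8.14 in MOCK and 7.45 in WT. Both genes differed by 0.81 log2 units between the groups, Gstm1 by 0.31 and Abcc4 by 0.41 after quantile normalization.

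In the wider glutathione list of 25 measured genes, 16 were higher as deposited and 15 after quantile normalization, with medians of 0.26 and 0.09 log2 units and 4 genes at an unadjusted p under 0.05, or 2 after quantile normalization. Chac1, which breaks glutathione down in the cytosol and is a target of ATF4, had the widest difference, with 10.01 in clone 1 and 10.48 in clone 2 against 8.12 in MOCK and 6.85 in WT. Both clones were far above both controls (difference 2.76, SE 0.47, limma adjusted p = 0.0750, and 2.37 after quantile normalization), and Chac1 rose in each clone fitted alone, with adjusted p = 0.0286 in clone 1 and 0.00248 in clone 2. Gss, glutathione synthetase, had 8.14 in clone 1 and 9.98 in clone 2 against 8.36 in MOCK and 7.35 in WT, and it rose in clone 2 alone by 2.12 log2 units (adjusted p = 0.0303). Gpx1, the main cytosolic glutathione peroxidase, had 14.81 in clone 1 and 14.67 in clone 2 against 14.02 in MOCK and 12.64 in WT (difference 1.41, SE 0.48, adjusted p = 0.420), or 0.94 after quantile normalization. Ggt7, a member of the gamma-glutamyltransferase family, differed by 1.15 log2 units (SE 0.47, adjusted p = 0.519), or 0.72 after quantile normalization, and Gss by 1.20 or 0.81.

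Of 17 measured genes of the thioredoxin, peroxiredoxin and superoxide dismutase list, 16 were higher as deposited and 9 after quantile normalization, with medians of 0.50 and 0.13 log2 units and 2 genes at an unadjusted p under 0.05, or 1 after quantile normalization. Sod3, the extracellular superoxide dismutase, had 11.37 in clone 1 and 12.31 in clone 2 against 8.98 in MOCK and 9.92 in WT. Its difference of 2.39 log2 units did not pass with all 4 arrays (SE 0.47, limma adjusted p = 0.121, and 1.94 after quantile normalization), and Sod3 rose in clone 2 fitted alone (adjusted p = 0.00245). Txnip, which encodes an inhibitor of thioredoxin that also answers to glucose, set the clones apart most, with 9.42 in clone 1 and 14.85 in clone 2 against 10.98 in MOCK and 10.55 in WT. Clone 2 was above both controls and clone 1 below both, and Txnip rose in clone 2 fitted alone by 4.09 log2 units (adjusted p = 3.76e-05). In clone 1 fitted alone Txnip was lower, which passed after quantile normalization (adjusted p = 0.0381) and not as deposited (adjusted p = 0.425). Txn2, the mitochondrial thioredoxin, differed by 1.10 log2 units (SE 0.42, adjusted p = 0.502), or 0.66 after quantile normalization. Sesn2, a stress-induced sestrin, differed by 0.88 (SE 0.41, limma adjusted p = 0.580), or 0.72 after quantile normalization. Its signals ran from 5.19 to 6.51, near the negative controls.

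Slc7a11 is also a target of ATF4, the transcription factor of amino acid shortage, so the genes of that response are set beside it. Of 20 measured genes 19 were higher as deposited and 15 after quantile normalization, with medians of 0.89 and 0.53 log2 units. Both clones lay above both controls for 15 of the 20, against 27.8% of all probe sets. After quantile normalization they did so for 12, against 19.2%. These last shares were not counted among probe sets of similar brightness. At an unadjusted p under 0.05 limma found 8, or 6 after quantile normalization. Nupr1, a small stress-induced chromatin protein, had 11.90 in clone 1 and 14.38 in clone 2 against 10.28 in MOCK and 10.10 in WT (difference 2.95, SE 0.65, adjusted p = 0.189, and 2.54 after quantile normalization). Ddit3, which encodes CHOP, had 12.16 in clone 1 and 12.92 in clone 2 against 11.46 in MOCK and 10.62 in WT (SE of the difference 0.44, adjusted p = 0.353), and differed by 1.06 after quantile normalization. Ppp1r15a had 5.37 in clone 1 and 7.12 in clone 2, against 4.25 in MOCK and 3.91 in WT, where it lay under the negative control median. In clone 2 fitted alone limma called 3 of the 20, Chac1, Nupr1 and Ppp1r15a, all higher, where 2.16% of all probe sets were called higher. This list and others like it had been seen to stand high in earlier results of these arrays, and it shares Chac1 and Slc3a2 with the glutathione list and Sesn2 with the thioredoxin list.

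**Figure D4:**
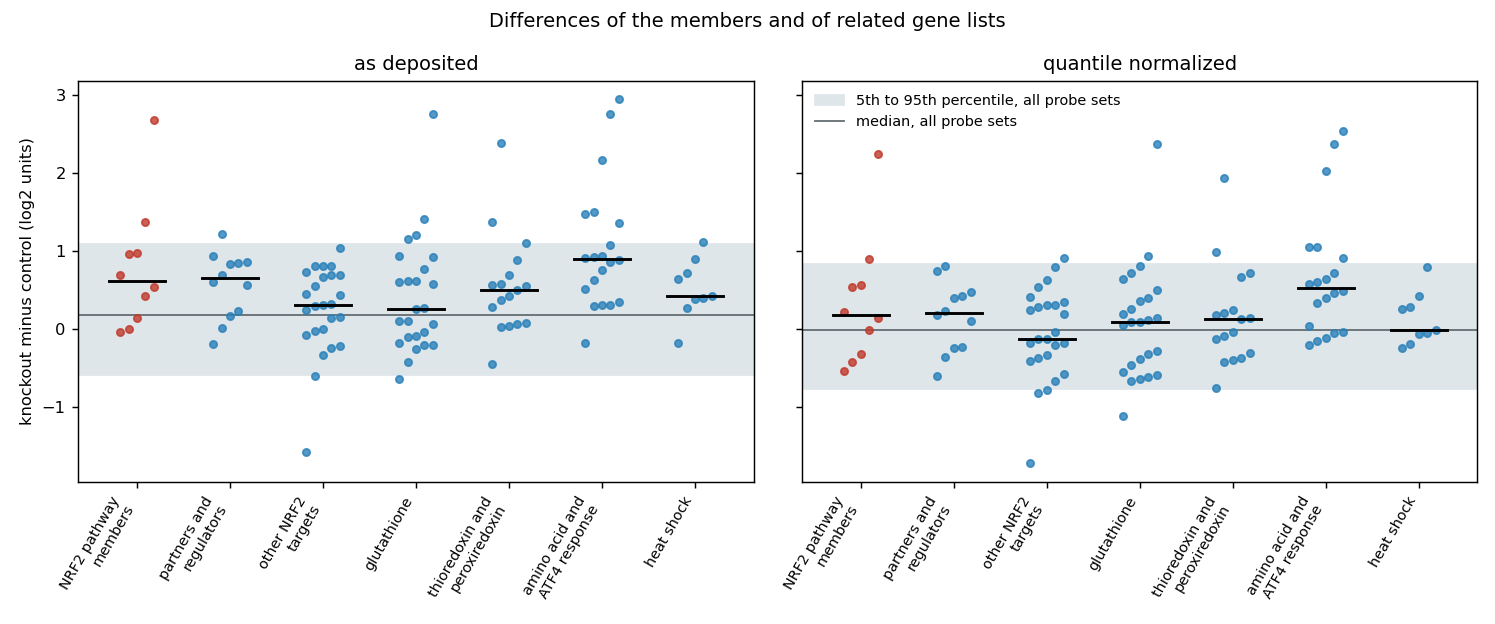
Knockout minus control difference (vertical axis, log2 units) of each measured gene in the 10-member group (red) and in related lists (blue), as deposited on the left and after quantile normalization on the right, with a black line at each list's median. The grey band holds the 5th to 95th percentile of all probe sets, from -0.60 to 1.09 as deposited and from -0.77 to 0.83 after quantile normalization, and Nqo1 is the red point far above it at 2.68 and 2.24.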

How the data were processed

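Total RNA of 4 samples was hybridised to Clariom S mouse arrays, 1 array each. The Transcriptome Analysis Console was the authors' software, per the submitters' processing notes. Its version, its normalization and the build: not given in the sources used here. Values were deposited as log2 signals, a scale read from their range. Groups came from the sample titles and the series' design text, because a cell label names the knockout on all 4 samples. No label says that the arrays came from separate cultures, so p-values measure only the spread between these arrays, and their number limits the precision.

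Of 28846 features, 6640 were controls and the other 22206 probe sets entered the tests. Exactly 1 symbol was known for 19572, several for 0 and none for 2634, and the probe set with the highest mean stood for a gene. The columns without a sample numbered 0. Knockout minus control was fitted with limma 3.58.1 (R 4.3.3; lmFit, eBayes), with Benjamini-Hochberg adjustment over all probe sets and calls at an adjusted p under 0.05. The fit was tested on simulated data. Single-clone fits left out the other clone. The members and gene lists were chosen with earlier results of these data known, and no list was tested as a set. Named genes are the members, Mgat5 and, per list, up to 4 genes with the widest difference among those above the median of the negative controls, plus any called. Vim, Acta2 and Ptgr1 were added. Python 3.11.15 made the tables. Alternatives were quantile normalization, median centring, 2 filters on dim signal, a trended robust variance and leaving out each array.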

Additional observations from a re-analysis of the deposited data

How the results depend on the processing

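Nqo1, Hmox1, Gclc, Gclm and Slc7a11 were higher in the knockout under every alternative run, while the sign of the other 5 members depended on the setting. Quantile normalization turned Nfe2l2 to -0.42, Keap1 to -0.011 and Txnrd1 to -0.32 log2 units, and median centring turned Nfe2l2 to -0.13. Leaving out 1 array at a time gave -0.30 to 0.30 for Nfe2l2, -0.50 to 0.78 for Txnrd1, -0.044 to 1.13 for Srxn1 and -0.27 to 0.20 for Gsr, 0.03 to 0.82 for Keap1, 0.21 to 1.16 for Gclm, 0.66 to 2.09 for Hmox1 and 1.67 to 3.69 for Nqo1. The median of the members ran from 0.09 without WT to 1.14 without MOCK. Limma called 9 probe sets as deposited, 1 after quantile normalization, 196 and 212 with the filters on dim signal, 340 with a trended robust variance, and 0 to 529 with 1 array left out. The filters test fewer probe sets, and otherwise the cause was not tested. Members called numbered 0 as deposited, 1 under either filter and under the robust variance (Nqo1 each time), and 0 to 2 with 1 array left out. With quantile normalization, chosen after seeing the data for the single clones, 255 probe sets were called in clone 1, against 149 as deposited, and 799 in clone 2, against 529. MOCK and WT were at least 1 log2 unit apart for 1004 probe sets after quantile normalization, against 2232 as deposited. The antioxidant response element lengthened by 1 base occurred in the windows of 1 of the 7 member genes and of 3.45% of all genes. With the core these were 4 of the 7 and 14%. Averaging the probe sets of a gene gave no separate value, since each member had 1. No paired analysis was possible because no label pairs a knockout array with a control array. Signals near the negative controls limit Srxn1, Nqo1 in the controls and Nfe2l2 in clone 2.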

Other observations

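The genes that flank Nqo1 on chromosome 8 also lay higher in clone 2 as deposited, but by less than Nqo1. The 10 nearest measured genes, 5 on each side in RefSeq order and picked after Nqo1 had been seen, differed by a median of 0.62 log2 units as deposited, from -0.12 to 0.85, and by a median of 0.23 after quantile normalization, from -0.53 to 0.40. In clone 2 alone they lay from 0.09 to 1.36 log2 units above the mean of the controls, with a median of 0.85, against 3.69 for Nqo1. Over all probe sets the clone 2 median was 0.24, and 0.46 among those at least as bright as the dimmest member. The median difference between the groups over all probe sets was 0.18, or -0.02 after quantile normalization. A shift of the region was not tested. The 10 neighbours of Hmox1, on the same chromosome, had a median difference of 0.14, and of 0.06 after quantile normalization, and in clone 2 they ran from -0.59 to 1.69, against 2.09 for Hmox1.

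Heat shock genes, which can accompany Hmox1 in protein damage, were measured for 9 of 11. As deposited 8 were higher, against 65.1% of all probe sets and 83.0% of those at least as bright as the dimmest member. After quantile normalization 4 were, against 48.3% and 46.8%. The median difference of the heat shock genes was 0.42 log2 units, or -0.01 after quantile normalization. Limma called 0 of them and found 1 at an unadjusted p under 0.05, Hspa1b, an inducible HSP70 gene, with 7.42 in clone 1 and 7.59 in clone 2 against 6.65 in MOCK and 6.14 in WT. It has a near-identical copy, Hspa1a, at 7.32 in clone 1 and 7.02 in clone 2 against 6.33 in MOCK and 6.72 in WT, and the probes may not tell them apart. The mitochondrial chaperones Hspe1 and Hspd1 differed by 0.90 (SE 0.44) and 0.72 log2 units (SE 0.44), or by 0.42 and 0.25 after quantile normalization, and Hspa1b by 1.12 or 0.80.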
